A study of Rattus norvegicus with 4 samples.

Results

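The interleukin-6 family is a group of secreted cytokines with shared receptor chains. The 10 genes described here were taken by name from the annotation of the deposited results table and joined by gene identifier to the deposited counts. They are 10 of 32883 genes in that table, each name had a single identifier, and all 10 passed the filter on low counts that left 15257 genes for testing. They comprise 6 ligand genes (Il6, Lif, Ctf1, Clcf1, Osm and Il11), 3 receptor genes (Il6st, Lifr and Osmr) and 1 gene of a feedback inhibitor, Socs3.

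The cytokines of this family signal through gp130, the product of Il6st. Leukaemia inhibitory factor (Lif), cardiotrophin-1 (Ctf1) and cardiotrophin-like cytokine factor 1 (Clcf1) pair gp130 with the LIF receptor, oncostatin M (Osm) uses the oncostatin M receptor, and interleukin-6 and interleukin-11 first bind receptors of their own. Receptor-bound JAK kinases then activate STAT3, which switches on target genes including Socs3, whose product binds gp130 and shuts the signal off. In cardiac muscle cells LIF and cardiotrophin-1 are known as inducers of hypertrophic growth and of survival.

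RNA was measured in cultured neonatal rat ventricular cardiomyocytes, prepared from Sprague-Dawley rats at postnatal day 2. There were 2 libraries of cells given phenylephrine (PE), an alpha-adrenergic agonist that makes such cells grow, at 20 µM for 24 h, and 2 libraries of cells labelled untreated. All cells had been plated for 1 h to remove cells that attach early and were then kept in medium with 10% fetal bovine serum, so both groups were exposed to serum. Whether replicate libraries came from separate cultures is not in the labels, and the spread behind the p-values may therefore be technical.

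Library totals ran from 45637881 to 56948370 counts, and mitochondrial-genome genes took 4.61% to 6.19% of counts in 3 libraries and 11.7% in control replicate 2. Levels are in CPM, counts scaled to a common library total after TMM adjustment. Nppa, the atrial natriuretic peptide gene, rose from 172 ± 0.371 CPM to 3407 ± 223 CPM (SD, n = 2 each), a marker of hypertrophic growth. Cardiomyocyte transcripts were abundant in every library, with Tnnt2 at 2244 to 3866 CPM and Actn2 at 1950 to 3415 CPM, and transcripts of other cell types were present too (given with the marker lists). A change counts here as an adjusted p under 0.05 over all genes tested with edgeR. By that rule 2393 genes, or 15.7%, were called, with 7.39% of genes higher and 8.3% lower with PE.

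With PE, 7 of the 10 genes changed: Il6, Lif, Il11, Clcf1 and Osmr rose, and Ctf1 and Lifr fell. Osm, Il6st and Socs3 did not pass the test. Of the 6 ligand genes, 4 were higher, 1 was lower and 1 did not pass, with a median log2 fold change of 1.75. The median over all genes tested was -0.01. An adjusted p under 0.05 also stood beside 7 of the 10 in the authors' deposited table, where 2555 of the 15231 genes with an adjusted p (16.8%) passed that threshold.

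**Figure D1:**
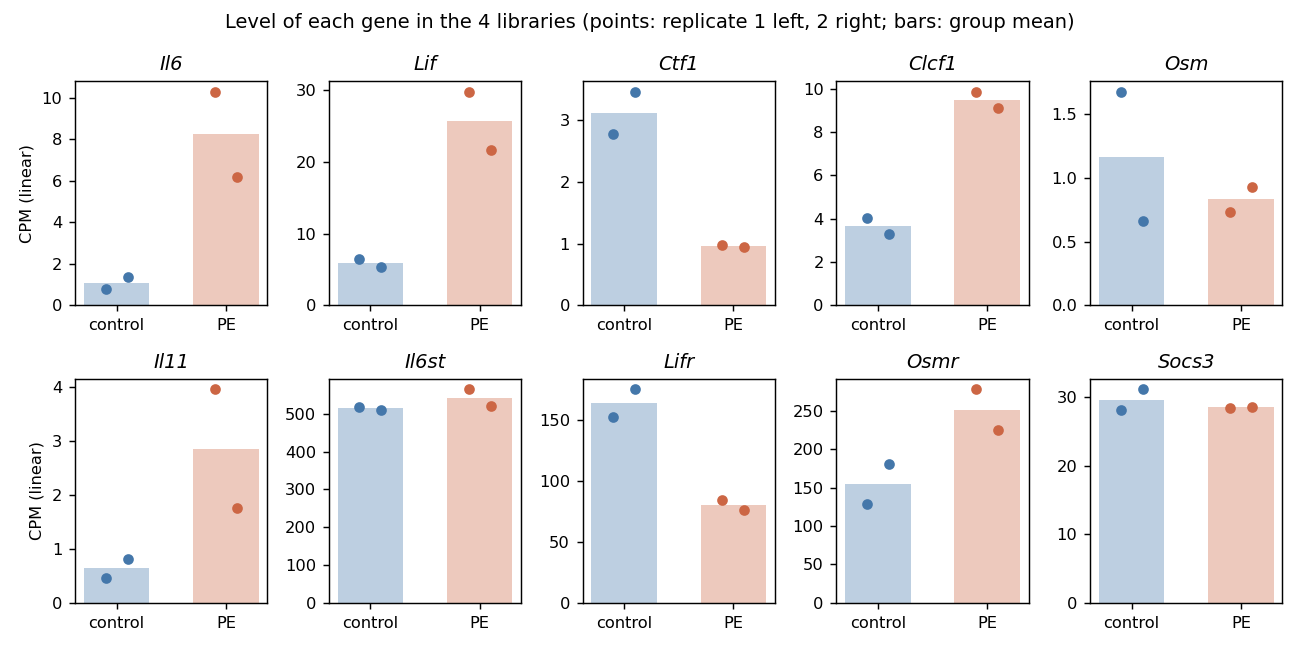
Level of each gene in CPM on linear axes that start at 0, with 1 point per library (replicate 1 left, replicate 2 right) and bars at the group mean of 2 libraries. The PE points of Il6, Lif, Il11, Clcf1 and Osmr lie above both control points and those of Ctf1 and Lifr below, while the points of Osm and Socs3 overlap between groups.

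Among the ligands, Il6 (ENSRNOG00000010278) had the largest log2 fold change of the 10 genes. Its level was 0.764 and 1.34 CPM in control replicates 1 and 2, and 10.3 and 6.19 CPM in PE replicates 1 and 2. Both PE libraries were well above both controls, although the libraries within each pair also differed. The log2 fold change was 2.98 ± 0.34 (SE), a 7.9-fold rise (adjusted p = 0.0003). The underlying counts were low in the controls, at 41 and 61, against 577 and 292 with PE.

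Lif (ENSRNOG00000007002) encodes a cytokine that acts through the LIF receptor and gp130. Lif stood at 6.48 and 5.35 CPM in the controls and 29.8 and 21.7 CPM with PE. The groups were far apart relative to their spread, and the log2 fold change of 2.12 ± 0.22, or 4.35-fold, had the smallest p of the 10 genes (adjusted p = 0.000177). In the RefSeq gene table Lif and Osm are neighbours with no gene entry between them. Osm (ENSRNOG00000024390), which encodes oncostatin M, was at 1.68 and 0.658 CPM in the controls and 0.73 and 0.932 CPM with PE. Both PE values of Osm lay between the 2 control values, and its log2 fold change of -0.51 had a 95% interval from -1.53 to 0.52 (adjusted p = 0.526). Counts were 30 to 90 per library, and a change of Osm in either direction within that interval was not excluded. Without control replicate 1 the log2 fold change of Osm was 0.34, and without control replicate 2 it was -1.01.

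Il11 (ENSRNOG00000017386) encodes interleukin-11, which signals through its own receptor and gp130. The level of Il11 was 0.466 and 0.812 CPM in the controls against 3.96 and 1.76 CPM with PE. Every PE value exceeded both controls, but the 2 PE libraries differed widely, with 222 and 83 counts. The log2 fold change was 2.18 ± 0.45 (adjusted p = 0.00812). Without PE replicate 1 it was 1.47 and Il11 no longer passed (adjusted p = 0.0639).

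Clcf1 (ENSRNOG00000018752) encodes a ligand that acts through the LIF receptor and gp130 with a further receptor chain. Its level was 4.01 and 3.27 CPM in the controls and 9.85 and 9.11 CPM with PE. The PE pair was tight and clearly above the controls, with a log2 fold change of 1.38 ± 0.21, or 2.6-fold (adjusted p = 0.00169). In the RefSeq table Clcf1 overlaps Rad9a. No source used here gives the strand setting of the counting, and reads of this pair could be mixed. Rad9a itself was at -0.55 ± 0.19 and did not pass (adjusted p = 0.0856).

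Ctf1 (ENSRNOG00000018962), which encodes cardiotrophin-1, was the one ligand gene that fell. It stood at 2.78 and 3.47 CPM in the controls and 0.98 and 0.953 CPM with PE. The PE libraries were nearly equal to each other and below both controls, a fall of 1.69 ± 0.29 on the log2 scale (adjusted p = 0.00299). Counts were 149 and 158 against 55 and 45. Ctf2, which overlaps Ctf1 in the RefSeq table, had 0 counts in every library. The ratio of Lif to Ctf1 counts went from 2.34 and 1.54 in the controls to 30.4 and 22.8 with PE. The exact two-sided permutation p of such a ratio can be no smaller than 0.333 with 2 libraries against 2.

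The receptor genes did not move together. Il6st (ENSRNOG00000013963), which encodes the shared chain gp130, stood at 519 and 510 CPM in the controls and 565 and 522 CPM with PE. The values barely separated, and the log2 fold change of 0.08 ± 0.16 had a 95% interval from -0.28 to 0.44 (adjusted p = 0.795). With 23242 to 31692 counts per library, depth did not set that interval. The fit shares its estimate of spread across genes. The Il6st libraries themselves were close, with replicate 2 over replicate 1 at -0.02 in the controls and -0.11 with PE on the log2 scale.

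Lifr (ENSRNOG00000011696), which encodes the LIF receptor, was at 152 and 175 CPM in the controls and 84.3 and 76.1 CPM with PE. Both PE libraries were below both controls, a fall of 1.03 ± 0.16 on the log2 scale, to 0.491 of the control level (adjusted p = 0.00215). Without PE replicate 2 the log2 fold change was -0.95 and did not pass (adjusted p = 0.0894).

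Osmr (ENSRNOG00000033192), which encodes the oncostatin M receptor, was at 128 and 181 CPM in the controls and 278 and 224 CPM with PE. The groups did not overlap, but PE replicate 2 and control replicate 2 were close. The rise of 0.70 ± 0.20, or 1.63-fold, passed narrowly (adjusted p = 0.0407). Without PE replicate 1 the log2 fold change was 0.54 (adjusted p = 0.484), without PE replicate 2 it was 0.85 (adjusted p = 0.107), and with upper-quartile factors it was 0.67 (adjusted p = 0.0571), so the call needed both PE libraries and depended on the scaling.

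Osmr and Lifr are separated in the RefSeq table by 1 entry, the pseudogene Rpl21-ps11, and they moved in opposite directions. The count ratio of Lifr to Osmr was 1.18 and 0.968 in the controls and 0.304 and 0.339 with PE. The ratio of Lifr to Il6st was 0.293 and 0.343 against 0.149 and 0.146, and that of Osmr to Il6st 0.247 and 0.354 against 0.492 and 0.43. None of these ratios overlapped between the groups, and each shares genes with the others, so they are not separate evidence. They compare libraries and not genes, because the files give no transcript length and levels of different genes cannot be ranked from them.

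Socs3 (ENSRNOG00000002946), the feedback inhibitor that STAT3 induces, was at 28.2 and 31.2 CPM in the controls and 28.5 and 28.6 CPM with PE. The PE values fell inside the control range. The log2 fold change was -0.06 ± 0.17, with a 95% interval from -0.43 to 0.31 (adjusted p = 0.865). A change of Socs3 within that interval, in either direction, was not excluded by these libraries. Counts of Socs3 were 1351 to 1599 per library. Of the 10 genes, 8 had groups that did not overlap, the 7 called genes and Il6st. Over all genes tested 56.7% did not overlap, so that count alone distinguishes little.

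**Figure D2:**
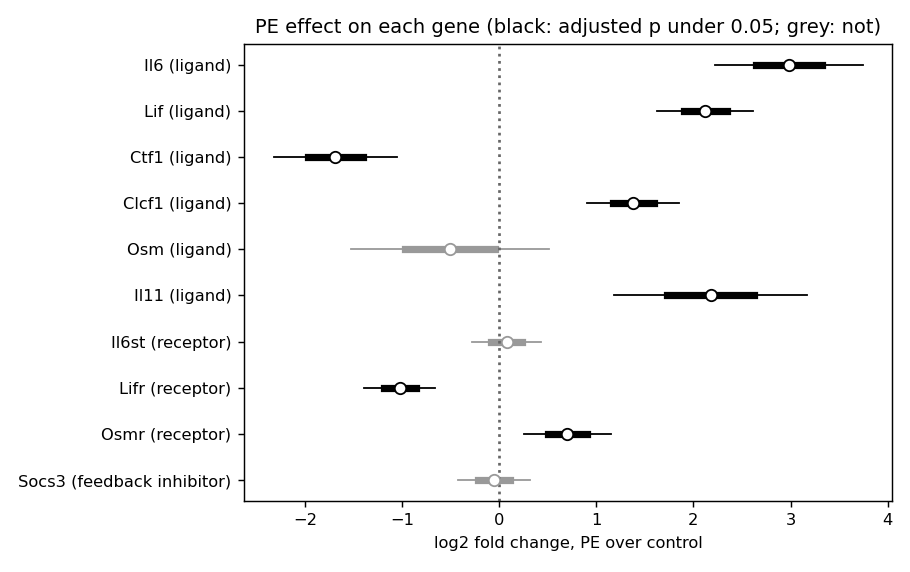
Log2 fold change of each gene, PE over control, from the edgeR fit of 4 libraries, with thick bars for 1 standard error and thin bars for the 95% interval. Black genes passed an adjusted p under 0.05: Il6 at 2.98 is furthest right and Ctf1 at -1.69 furthest left, while the intervals of Osm, Il6st and Socs3 (grey) include 0.

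Of the 7 called genes, 4 passed in each of the 4 fits that left out 1 library, namely Il6, Lif, Ctf1 and Clcf1. Over those fits the log2 fold change ran from 2.57 to 3.43 for Il6, from 1.88 to 2.34 for Lif, from -1.83 to -1.52 for Ctf1 and from 1.24 to 1.54 for Clcf1. All 7 kept their direction. A fit without a control library takes its spread from the PE pair alone, and one without a PE library from the control pair, which differed more.

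**Figure D3:**
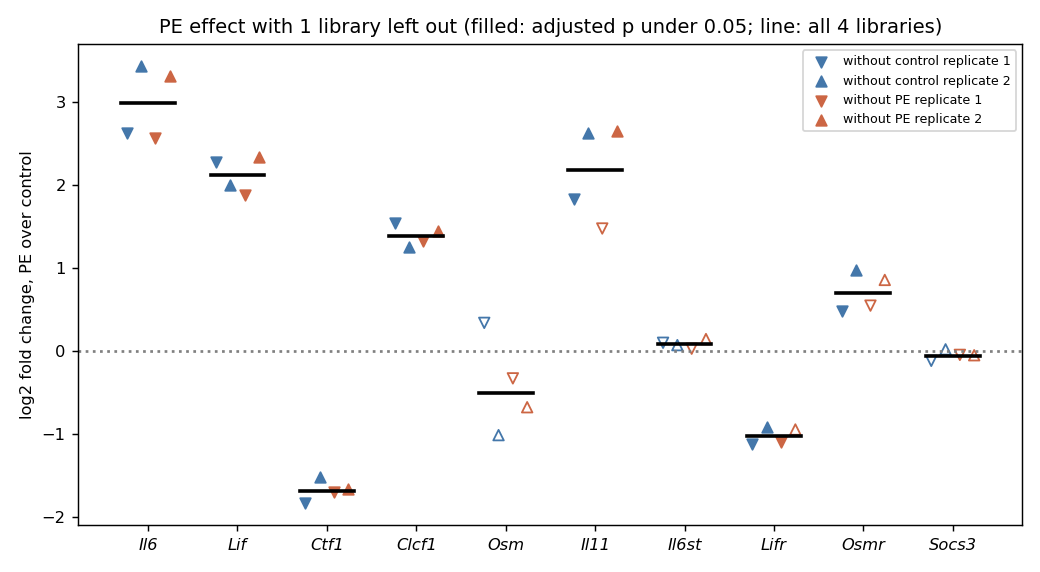
Log2 fold change of each gene (PE over control) when 1 library is left out, with filled markers for an adjusted p under 0.05 and black lines for the value with all 4 libraries. Il11, Lifr and Osmr have open markers without a PE library (Il11 1.47 without PE replicate 1; Lifr -0.95 without PE replicate 2), and Osm changes sign without control replicate 1.

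Promoter sequences show where letters that match patterns of binding sites for stimulus-activated factors lie next to these genes. RefSeq promoters of build GRCr8 were matched for 7 of the 10 genes (Il6, Ctf1, Il11, Il6st, Lifr, Osmr and Socs3), and the 250 bases before the annotated start were searched on both strands for 3 motifs. These were the STAT motif TTCNNNGAA, a loose AP-1 motif TGANTCA and the cyclic AMP response element (CRE) TGACGTCA, with N for any base. The loose AP-1 motif takes in letters besides the usual TGACTCA and TGAGTCA. Each motif reads the same on both strands, and none of the matches overlapped another. Of the 33469 promoters in the table, 7.67% held the STAT motif in that window, 6.34% the AP-1 motif and 1.59% the CRE. The counts were 0, 2 and 1 of the 7 genes. The 3 promoters with a match belong to genes that rose, and are printed 5′ to 3′ with the match in capitals. Lif and Clcf1, which also rose, had no promoter to search, and a link between motifs and direction was not tested. The Il6 window (chr4:5894576-5894825, minus strand) has the CRE at positions -162 to -155 from the start. The Il11 window (chr1:78098372-78098621, plus strand) has the AP-1 motif at -142 to -136, as TGAGTCA. In the Osmr window (chr2:57688562-57688811, minus strand) the match at -33 to -27 is TGATTCA, which fits the loose AP-1 motif only.
Il6: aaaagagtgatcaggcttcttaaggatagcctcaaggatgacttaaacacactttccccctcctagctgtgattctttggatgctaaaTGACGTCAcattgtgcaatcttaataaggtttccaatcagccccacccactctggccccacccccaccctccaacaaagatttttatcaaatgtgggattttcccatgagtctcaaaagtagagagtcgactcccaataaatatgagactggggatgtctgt
Il11: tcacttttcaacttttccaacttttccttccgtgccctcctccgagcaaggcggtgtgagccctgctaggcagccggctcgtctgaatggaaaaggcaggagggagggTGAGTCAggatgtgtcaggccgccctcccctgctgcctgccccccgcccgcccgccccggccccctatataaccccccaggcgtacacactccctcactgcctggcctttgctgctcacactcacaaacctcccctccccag
Osmr: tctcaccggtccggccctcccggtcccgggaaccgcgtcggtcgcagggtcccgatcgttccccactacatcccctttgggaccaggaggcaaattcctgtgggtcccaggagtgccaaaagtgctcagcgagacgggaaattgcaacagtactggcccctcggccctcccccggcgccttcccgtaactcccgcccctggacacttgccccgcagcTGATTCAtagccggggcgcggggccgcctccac
In the windows of Ctf1, Il6st, Lifr and Socs3 none of the 3 motifs was found. A match is a match of letters and no measurement of binding.

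Of the other genes of this signaling pathway, 66 of the 78 in 6 lists were tested. Of these, 7 rose, 5 fell and 54 did not pass, a called share of 18.2% beside 15.7% of all genes, with a median log2 fold change of 0.01. In the 4 fits that left out 1 library, the number of pathway genes called rose and fell with the number called over all genes tested. Of the 12 called genes, 3 (Ebi3, Timp1 and Ccnd1) passed in all 4 of those fits.

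Of 3 other ligand genes tested, 1 rose, 1 fell and 1 did not pass, with a median of 0.22. Il12a, which encodes an interleukin-12 subunit, rose from 0.461 ± 0.124 CPM to 1.24 ± 0.136 CPM (SD, n = 2), but was not called by DESeq2 (adjusted p = 0.0728), without control replicate 1 (adjusted p = 0.0597), without PE replicate 1 (adjusted p = 0.254) or without PE replicate 2 (adjusted p = 0.0876). Ebi3, which encodes a subunit of interleukin-27, was at 6.12 ± 0.677 CPM in the controls and 2.44 ± 0.249 CPM with PE, a log2 fold change of -1.32 ± 0.23 (adjusted p = 0.00329).

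Among 5 other receptor genes tested, 1 fell and 4 did not pass, with a median of -0.36. Il6r, which encodes the specific receptor of interleukin-6, stood at 27.4 and 23.1 CPM in the controls and 15.5 and 15.6 CPM with PE. Its log2 fold change was -0.70 ± 0.18 (adjusted p = 0.025), and the call was lost with PE replicate 1 left out (adjusted p = 0.316) and with PE replicate 2 left out (adjusted p = 0.293). The transcript of the receptor thus moved opposite to that of its ligand. Il11ra1 and Cntfr were chosen for mention after their values were seen. Il11ra1, which encodes the receptor of interleukin-11, was at 53 ± 10.6 CPM and 52.8 ± 2.67 CPM, with a 95% interval of the log2 fold change from -0.41 to 0.40. Cntfr, which encodes the receptor chain that CLCF1 shares with ciliary neurotrophic factor, had only 20 to 27 counts per library.

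In the cascade below the receptors, of 11 genes of kinases and adaptors, 1 fell, 0 rose and 10 did not pass in edgeR, with a median of -0.06. DESeq2 called 0 of them higher as well, and 2 were higher at an unadjusted p under 0.05. Jak2 and Ptpn11, chosen after their values were seen, each passed as higher with 1 control library left out: Ptpn11 without control replicate 1 (0.48, adjusted p = 0.00568) and Jak2 without control replicate 2 (0.71, adjusted p = 1.58e-05). Gab1, an adaptor that links gp130 to MAP kinase signaling, stood at 133 and 129 CPM in the controls and 77.6 and 85.9 CPM with PE. It fell by 0.68 ± 0.16 (adjusted p = 0.0156), a call that was lost with PE replicate 1 left out (adjusted p = 0.431) and with PE replicate 2 left out (adjusted p = 0.239). Of the 6 STAT genes tested, 0 passed in edgeR, 1 was lower at an unadjusted p under 0.05, and DESeq2 called 1 lower. Their median was -0.09. The gene that DESeq2 called was Stat4, chosen after its value was seen, at 93.2 and 92 CPM in the controls and 66.3 and 63.3 CPM with PE. Its log2 fold change of -0.51 ± 0.16 just missed the threshold in edgeR (adjusted p = 0.0508) and passed in 8 of 12 alternatives, over which the adjusted p ran from 0.00121 to 0.584. Stat3, the main STAT of this pathway, was at 574 and 455 CPM in the controls and 648 and 646 CPM with PE, a log2 fold change of 0.33 ± 0.18 (adjusted p = 0.253) that passed, of 12 alternatives, only without control replicate 1 (0.51, adjusted p = 0.00187). Stat6 was at 140 ± 23.4 CPM and 143 ± 4.23 CPM.

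Of 16 other negative regulators, 1 rose, 2 fell and 13 did not pass, with a median of -0.23. Socs5, a relative of Socs3, rose by 0.75 ± 0.15, from 95.4 ± 2.1 CPM to 160 ± 1.95 CPM. Socs6 was at 60.5 ± 0.196 CPM in the controls and 32.3 ± 0.933 CPM with PE, a log2 fold change of -0.91 ± 0.16. Ptpn6, a phosphatase gene active mainly in blood cells, fell by 0.85 ± 0.19. The groups of Socs5 and Socs6 were far apart, but with either PE library left out none of the 3 passed (without PE replicate 1 adjusted p = 0.214, 0.0969 and 0.295 for Socs5, Socs6 and Ptpn6, without PE replicate 2 adjusted p = 0.175, 0.129 and 0.0705).

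Of 25 genes listed as targets of STAT3, 5 rose, 0 fell and 20 did not pass, with a median of 0.36. DESeq2 called 7 higher and 0 lower, and at an unadjusted p under 0.05 there were 10 higher and 2 lower. Many of them also answer to other factors. Timp1, an inhibitor of matrix proteases, rose from 20.3 ± 5.72 CPM to 54.4 ± 3.42 CPM (log2 fold change 1.42 ± 0.21). Ccnd1, cyclin D1, rose from 134 ± 30.3 CPM to 335 ± 40.7 CPM (1.32 ± 0.20). Ptx3 and Nfkbiz, genes of the acute inflammatory response, rose by 1.20 ± 0.20 and 1.12 ± 0.21, and both calls were lost with PE replicate 1 left out (adjusted p = 0.0548 and 0.0866). The fifth was Fos, chosen for mention after its value was seen, at 0.84 ± 0.19, a call that was lost with PE replicate 2 left out (adjusted p = 0.247). Socs3, the target described above, was not among the genes that rose. Bcl3, Junb and Cebpd, genes of this list chosen after their values were seen, were at -0.47, 0.26 and 0.24 and did not pass. Gfap, Lcn2, Il4r and Hp, also chosen after their values were seen, were at 1.15, 0.56, 0.54 and -0.72 and did not pass either. The 5 called genes, all higher, were 20% of the list. Over all genes, 15.7% were called in either direction and 7.39% were called higher. Of the 25 listed genes, 19 had a log2 fold change above 0 and 6 below. No test was run over the list.

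**Figure D4:**
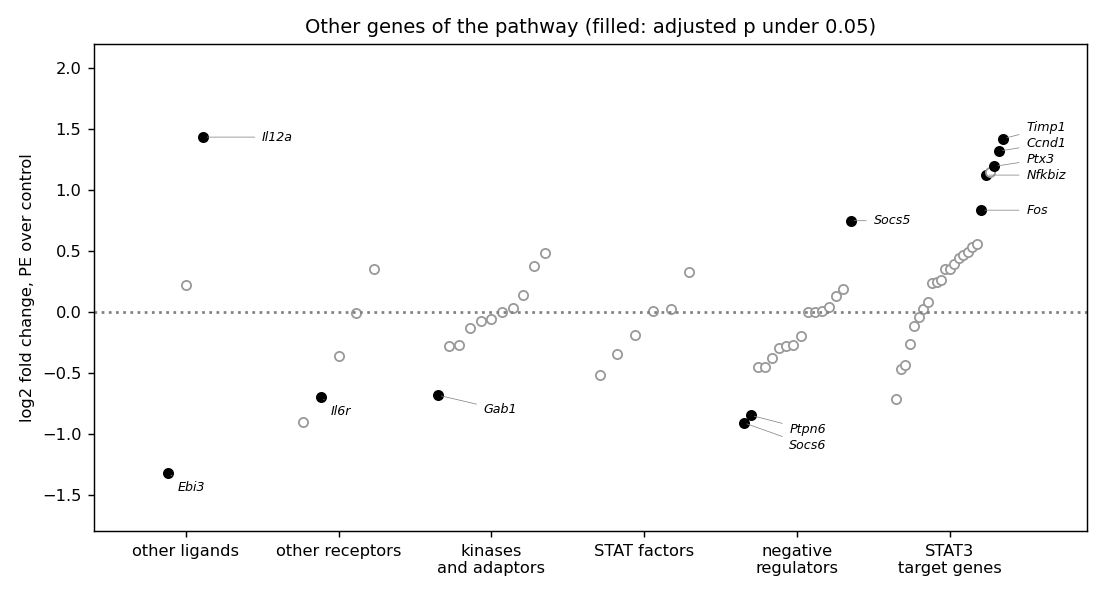
Log2 fold change (PE over control) of 66 other genes of the pathway in 6 lists, with 1 point per gene, ordered by value within a list, and named filled points for an adjusted p under 0.05. Il12a at 1.44 and Timp1 at 1.42 are highest and Ebi3 at -1.32 lowest, and the 5 filled points among STAT3 targets all lie above 0.

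By the distance between centred log2 CPM values over 4 libraries, the tested genes most like Lif were Steap1 (distance 0.137), Stmn4 (0.195) and Pnpla3 (0.206). Steap1 was at 3.5 and 3.34 CPM in the controls and 18 and 13 CPM with PE. Stmn4 was near 0 in the controls, at 0.0373 and 0.0439 CPM, and at 2.05 and 1.33 CPM with PE. Its log2 fold change of 5.31 was far larger than the 2.12 of Lif. Distances were taken after 0.5 CPM was added, which shrinks the differences of genes this low, and to a lesser degree those of Il6. The tested genes most like Il6 were Ptgs2, the inducible cyclooxygenase of prostaglandin synthesis (0.196), Idi1, of isoprenoid synthesis (0.225), and Ccl27, a chemokine gene (0.24). Ptgs2 was at 13.7 and 23.7 CPM in the controls and 128 and 87.4 CPM with PE, so it had, like Il6, the higher control value in replicate 2 and the higher PE value in replicate 1. With 4 libraries in 2 groups this is a description of similar values only.

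These cultures contained transcripts of several cell types, and in bulk RNA fewer cells of a type and less RNA per cell cannot be told apart. The summed level of 9 cardiomyocyte markers was 12193 and 13961 CPM in the controls and 11744 and 12523 CPM with PE. Of the 9, 1 was called higher and 0 lower, while 6 had a log2 fold change below 0 and the list median was -0.28. Fibroblast markers summed to 18343 and 16455 CPM against 10295 and 10195 CPM, with 2 of 9 lower. The list did not move as one, since 5 of its 9 genes had a log2 fold change above 0 and its median was 0.04. Col3a1, named after its value was seen, at 7841 and 6076 CPM in the controls and 2603 and 2843 CPM with PE, held much of the difference between the sums. Col1a1 was at 3273 to 6661 CPM and Pdgfra at 362 to 650 CPM. Macrophage and leukocyte markers summed to 204 and 229 CPM against 137 and 139 CPM, with 4 of 11 lower. Ptprc was at 13.3 to 28.2 CPM and Cd68 at 54.3 to 90.5 CPM.

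Endothelial markers summed to 241 and 238 CPM against 168 and 176 CPM, with 5 of 9 lower and 1 higher, and Cdh5 was at 24.5 to 50.8 CPM. Mesothelial and epicardial markers summed to 243 and 206 CPM against 133 and 143 CPM, with 3 of 8 lower and 1 higher. Wt1 was at 9.85 to 13 CPM and Msln at 42.8 to 98.8 CPM. Smooth muscle and pericyte markers summed to 967 and 806 CPM against 984 and 1158 CPM, with 2 of 8 higher and 1 lower and a median log2 fold change of -0.28. The 2 that were higher, named after their values were seen, were Cnn1, at 5.2 and 4.43 CPM in the controls and 141 and 162 CPM with PE, and Cspg4, at 206 and 131 CPM against 334 and 444 CPM. Myh11 was at 16.6 to 28.1 CPM and Rgs5 at 4.81 to 8.51 CPM. No defining marker measured was at 0. The lower leukocyte, endothelial and mesothelial sums and list medians (-0.63, -0.72 and -0.49) ran in the direction of Ctf1, Lifr, Il6r, Ptpn6 and Ebi3 and opposite to Il6, Lif, Il11, Clcf1 and Osmr. Lower values were not particular to those lists. The cardiomyocyte and smooth muscle medians were both -0.28, and the fibroblast sums were lower with PE at a median of 0.04. The part of any marker list in any of these results was not tested.

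**Figure D5:**
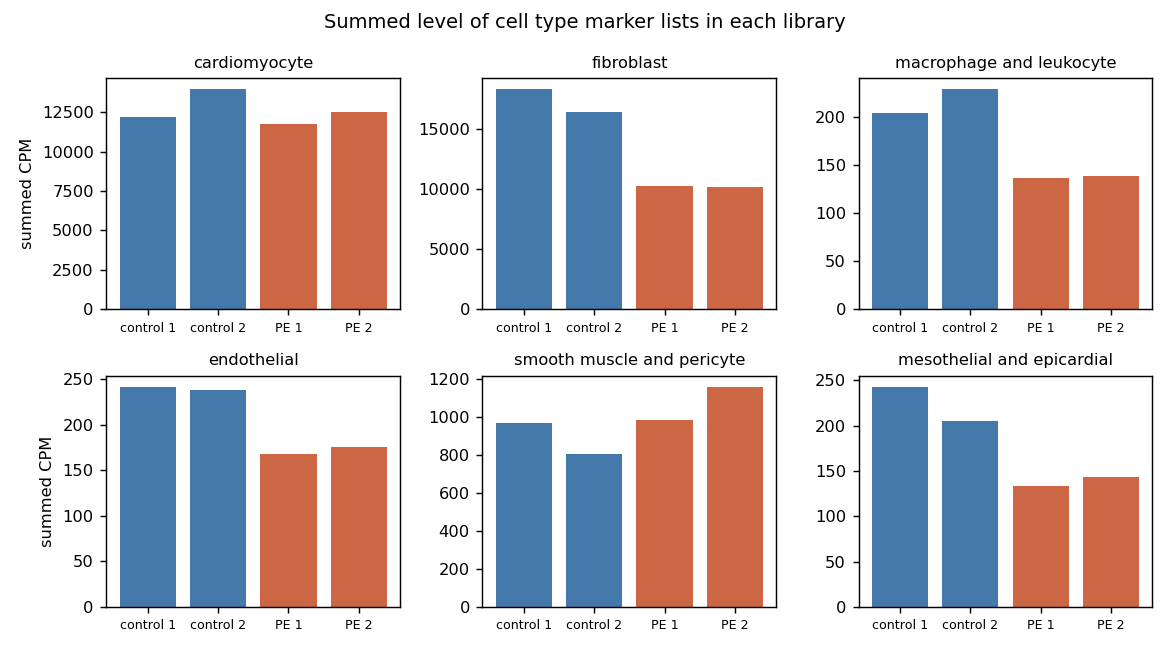
Summed CPM of 6 marker lists in each of the 4 libraries (blue: control, red: PE), on axes that start at 0. The sums of the fibroblast, leukocyte, endothelial and mesothelial lists are lower in both PE libraries than in both controls, and the cardiomyocyte sums overlap.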

How the data were processed

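The authors deposited raw counts per gene for 4 rRNA-depleted, strand-specific libraries, and a table of their own comparison whose columns are those of DESeq2 results (mean normalized count signal, log2 fold change with its standard error, Wald score, p-value and adjusted p-value), per the file headers. Cutadapt 2.0, STAR 2.4.2a, featureCounts 1.6.4 and build Rnor_6.0 are named, per the submitters' processing notes. The sources used here do not state the annotation release or the strand setting. Groups came from the sample titles, because the treatment protocol in the labels mentions PE for all 4 libraries.

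Of 32883 genes, 15257 passed edgeR's default filter (minimum count 10, minimum total 15). They were fitted with edgeR 4.0.16 (limma 3.58.1, R 4.3.3), TMM factors and the quasi-likelihood F test, PE against control, without covariates, and p-values were Benjamini-Hochberg adjusted over all of them. The standard error is the log2 fold change divided by the root of F. Within-pair chi-square per degree of freedom was 161 for the controls and 23.4 for PE, so in neither group was 1 library a copy of the other. The fit was also run on simulated counts drawn with its own dispersions, which cannot show how well it suits the real replicates. CPM are given per library or as mean ± SD (n = 2). The pattern distance used log2(CPM + 0.5). Alternatives were other factors, no filter, DESeq2 1.42.0, a replicate block, no mitochondrial-genome genes, and each library left out.

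The genes, pathway lists and marker lists were chosen with earlier results of these data known. Named from each pathway list were up to 4 called genes, taken by absolute log2 fold change, or else the 2 most abundant, plus the 10 genes, the 3 nearest patterns of the 2 called genes with the smallest p, 2 defining markers per cell type and Nppa. Other list genes were named after their values were seen, as the text says beside them. Some list genes, such as Pecam1, were not analysed here, and a few others are left unreported. RefSeq neighbours and promoters are of build GRCr8, and its gene table was used for names and order only.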

Additional observations from a re-analysis of the deposited data

How the results depend on the processing

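Over 12 alternatives the 10 genes gave 120 values, of which 118 kept their direction and 114 their direction and side of the threshold. The other 6 lost the call: Osmr in 4 (without PE replicate 1, without PE replicate 2, upper-quartile factors and the replicate block), Il11 without PE replicate 1 and Lifr without PE replicate 2. The 2 changes of sign were those of uncalled genes, Osm at 0.34 without control replicate 1 and Socs3 at 0.02 without control replicate 2. Leaving out 1 library gave 1205 to 4755 called genes in all (2393 with 4 libraries), 5 to 7 of the 10 genes (7) and 5 to 28 pathway genes (12). For the libraries left out, the single library of a group was assumed to vary like the other pair. Same-numbered libraries did not deviate together (correlation of deviations across genes -0.388). With 2 libraries a group there is a single deviation per group, so this value cannot decide whether the numbers pair libraries. With the replicate block 1964 genes, 6 of the 10 and 10 pathway genes were called, and Osmr did not pass (adjusted p = 0.0599). With the numbers crossed, an alternative chosen after seeing the data, 4677 genes, 7 of the 10 and 28 pathway genes were called. Low counts limit Osm, Il11 and the control values of Il6.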
